A study of Caenorhabditis elegans with 12 samples.

Results

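Tc elements are among the DNA transposons of Caenorhabditis elegans, and the transcripts described here are those counted on single genomic copies of them. The deposited table lists 53925 single repeat copies beside 45836 genes. Copies were taken by name, as all repeat entries whose name starts with Tc or TC and a digit and ends in a copy number, and the family is the name without that number. The rule found 1272 copies in 9 families, with 42 copies named Tc1, 294 named Tc1A, 198 TC2, 240 Tc3, 217 TC4, 19 TC5, 81 TC5A, 142 TC5B and 39 Tc6. No value was used to choose them.

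Tc1 is the founding member of the Tc1/mariner superfamily, whose members move by cutting themselves out of the DNA and inserting elsewhere with the help of a transposase that binds their terminal inverted repeats. In the wild-type Bristol strain, N2, these elements are kept still in the germline, where small RNAs made by the mutator proteins and the piRNA pathway act on their transcripts, and histone H3 lysine 9 methylation is a further layer of repression. In mutants of that pathway Tc1, Tc3, Tc4 and Tc5 jump in the germline. Tc2, Tc4 and Tc5 form a group of their own within the superfamily, and Tc6 is a palindromic repeat. In this text Tc1A, TC5A and TC5B are repeat family names as the table gives them, and Tc1A is not the transposase gene of Tc1.

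RNA from whole gravid adults was sequenced in 4 groups of 3 libraries, which the labels call biological replicates, each from 3 plates seeded with 1500 eggs. Control animals were wild-type N2 kept at 20 °C throughout. The F0 group was N2 taken from more than 20 generations at 20 °C to 25 °C as L4 larvae, kept there for 5 generations and collected 54 to 56 h after eggs were plated. The F3 group descended from F0 animals that were returned to 20 °C at the L4 stage, and it was collected 3 generations later at 72 to 76 h. The set-25 group was strain MT17463, which carries the allele set-25(n5021) III in a gene for a histone H3 lysine 9 methyltransferase, and was kept for more than 20 generations at 20 °C and collected at 72 to 76 h. F0 animals were thus warmer and also collected at fewer hours than F3 and set-25 animals, so temperature and hours of growth cannot be told apart. The sample records used here hold no collection hours for the controls, so how these compare with the other groups is not known. The mutant group is 1 strain with 1 allele, its growth protocol names no wild-type population grown beside it, and its library names carry a later series number, so mutation, strain and library series cannot be told apart.

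Libraries held 10678819 to 35483865 counts. Counts on ribosomal RNA were 3.43 to 4.93% of a wild-type library and 11.7%, 4.01% and 26.3% of set-25 libraries 1, 2 and 3, so results for the mutant are also given without libraries 1 and 3. All 15 yolk and oocyte markers and all 4 germline markers were detected in every group. Sperm markers were listed as ones that should be low in gravid hermaphrodites past spermatogenesis, yet at least 36 of 38 were detected in each group. Detection alone therefore does not check the labelled stage. The summed level of 38 sperm markers was 196 to 272 CPM (counts scaled to a common library size, set on the genes alone) in F0 and 7.53 to 45.8 in controls, and that of 3 epidermis markers was 18.6 to 21.6 CPM in F0 and 4.2 to 8.6 in controls. The sum of 3 muscle markers was also higher in F0, at 924 to 1160 CPM against 788 to 904 in controls. Lower in F0 were the sums of 5 intestine markers, at 2030 to 2090 CPM against 2350 to 2400, and of the 15 yolk and oocyte markers, at 49900 to 57200 against 60200 to 64000. The F0 and control libraries did not overlap in any of these 5 sums, while the germline and neuron sums overlapped. These sums moved with the F0 results below, and their part in those results was not tested. The set-25 transcript stood at 59.1, 59.3 and 50.7 CPM in the mutant libraries and at 69.8, 65.9 and 66.8 in controls, and since the labels do not say where in the gene the allele lies, this level does not check the genotype. In whole animals, fewer cells of a type and less RNA per cell cannot be told apart.

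Tc transcripts were a small and steady share of the RNA. They took 0.0081 to 0.0114% of the counts of a library, or 864.7 to 3659 counts. Levels are in CPM throughout. The summed level over all Tc copies was 103.9 ± 2 CPM in controls, 100.3 ± 3.04 in F0, 103.7 ± 7.32 in F3 and 106.3 ± 0.361 in set-25 (mean ± SD, n = 3 each). The range of each group overlapped that of the controls.

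Most copies held few counts or none. Of the 1272 copies, 368 had 0 in all 12 libraries, and 904 had some count. A 0 in all 12 libraries allows a level of up to 0.00872 CPM, which covers counting error only. A further 622 of the 904 averaged under 1 count per library, and 92 averaged at least 10. The authors' values are estimated counts, and 85.9% of the non-zero values of Tc copies were not whole, as can happen when a read that matches several places is divided among them. Only 134 copies had whole values throughout, with 1.27% of all Tc counts. Copies of 1 family can therefore share reads and are not independent, and the family sum is firmer than a single copy. Whether copies of different families, such as Tc1 and Tc1A, also share reads is not known, and summing by family would not undo that. The table gives no positions or lengths for the copies, so levels are not compared between families, and reads from an element and reads from a gene around it cannot be told apart.

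Families differed in how their counts were spread over copies. TC2 was almost a pair of copies, since TC2_13 and TC2_14 held 42.9% and 40.7% of its counts, 83.6% together. In TC5A, the copy TC5A_27 alone held 39.9%. The number of copies needed for 50% of the counts was 4 in TC5, 5 in TC5B, 7 in Tc1A, 7 in Tc6 and 8 in TC4. Tc1 and Tc3 were the most even, with the highest copy at 8.71% and 7.18% and with 13 and 15 copies needed for 50% of the counts. Tc1A had a sharp break, in which its 12 highest copies held 80.1% of the counts and the other 282 held 19.9%.

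**Figure D1:**
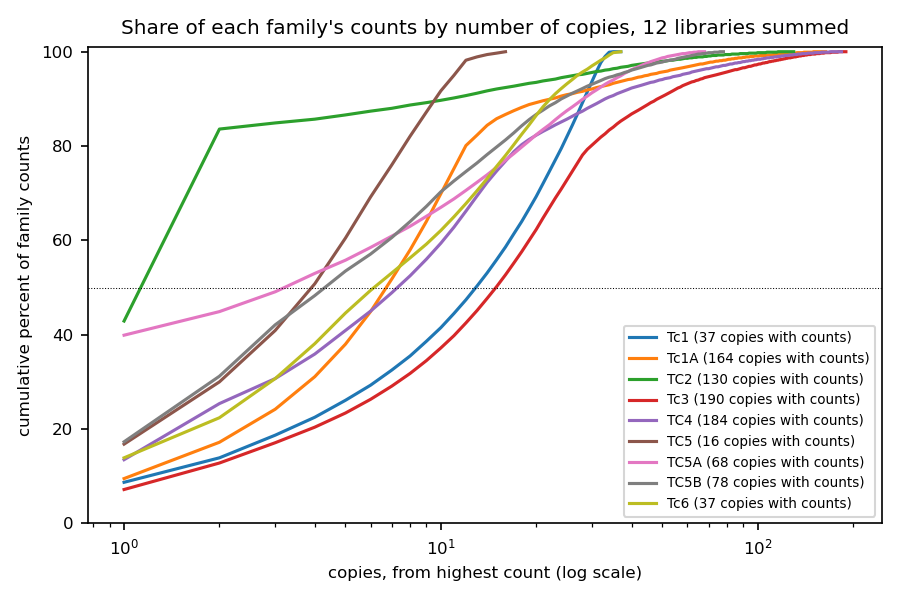
Cumulative percent of a family's counts (vertical axis, 12 libraries summed) against the number of copies, taken from the highest count downward (horizontal axis, log scale), with 1 line per Tc family and a dotted line at 50%. The TC2 line jumps to 83.6% at 2 copies and the Tc1A line bends at 12 copies and 80.1%, while Tc1 and Tc3 climb evenly.

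Whether Tc transcripts differed in animals kept at 25 °C was asked by comparing F0 with control. Tc1A transcripts rose 1.53-fold, those of Tc1 fell 1.39-fold and those of TC5 fell 1.29-fold. The other 6 families did not pass the test. Families were tested with edgeR's quasi-likelihood test on their summed counts, two-sided, with Benjamini-Hochberg adjustment over all 158 repeat families tested, and were called at an adjusted p under 0.05. Of 9 Tc families 1 was called higher and 2 lower, beside 6.96% and 10.8% of all families tested. The F0 and control libraries did not overlap for 1 Tc family on the higher side and 3 on the lower, beside 16.5% and 17.7% of all. The median log2 fold change was -0.03 over the Tc families and 0.00 over all.

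Tc1A stood at 11.7, 12.2 and 10.4 CPM in the control libraries and at 18.1, 16.5 and 17.8 in F0. Every F0 library lay above every control library. The log2 fold change was 0.61 (SE 0.11, 95% interval 0.38 to 0.84, edgeR adjusted p 0.000184). Most of the difference in CPM was in the 12 highest copies, which were ranked by mean CPM over all 12 libraries, F0 included. These stood together at 9.26, 9.01 and 7.72 CPM in controls and at 15.2, 13.7 and 14.9 in F0, while the other 282 copies stood at 2.44, 3.23 and 2.72 in controls and at 2.9, 2.82 and 2.96 in F0. The groups did not overlap for the 12 and overlapped for the 282. A copy high in F0 is favoured for a place among the 12 and for having enough counts to be tested singly. Neither this split nor a sum of the low copies therefore locates the change. When only copies too low to be tested singly were summed, the log2 value for Tc1A was 0.04 (SE 0.15), and when only copies with whole values were summed it was 0.26 (SE 0.30), and the family was called under neither (adjusted p 0.976 and 0.86).

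Tc1, the family that gave the superfamily its name, went the other way. It stood at 17, 15.3 and 17.1 CPM in controls and at 12.2, 11.9 and 11.4 in F0. All F0 libraries lay below all controls, with a log2 fold change of -0.48 (SE 0.09, 95% interval -0.66 to -0.29, edgeR adjusted p 0.000271). Within a library, the ratio of Tc1A to Tc1, which no library scaling can change, was 0.61 to 0.8 in controls and 1.39 to 1.56 in F0. All F0 libraries lay above all controls in this ratio. That separation follows from the values of both families given above, so it is no separate support. The ratio was picked with its values in view, and its absolute size has no meaning because lengths are not known. Both families and their ratio would also depend on how any reads matching both were divided, which is not known. Of the non-zero values of Tc1 and Tc1A copies, 96.5% and 64.4% were not whole.

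TC5, an element that also jumps in mutator strains, stood at 9.17, 7.74 and 8.04 CPM in controls and at 6.58, 6.15 and 6.56 in F0. The groups did not overlap, and the log2 fold change was -0.37 (SE 0.11, 95% interval -0.59 to -0.14, edgeR adjusted p 0.0171). This call did not survive the loss of either of 2 libraries. Without control library 1 the log2 fold change was -0.31 (adjusted p 0.0931), and without F0 library 2 it was -0.35 (adjusted p 0.073). Calls of Tc1A and Tc1 held with each of the 6 libraries left out in turn, with log2 ranges of 0.53 to 0.65 and -0.54 to -0.46.

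Tc3, which like Tc1 is mobile in mutator strains, stood at 14.8, 14.2 and 16.2 CPM in controls and at 12.4, 13.7 and 13.4 in F0. The groups did not overlap, yet the log2 value of -0.19 (SE 0.09) had an edgeR adjusted p of 0.19. It was called when only the 6 libraries compared entered the fit (-0.20, adjusted p 0.0359). TC4 stood at 21.8, 21.7 and 21.8 CPM in controls and at 22.4, 19.5 and 19.2 in F0, and TC2 at 20, 19.7 and 18.1 in controls and at 19.2, 18 and 19.4 in F0. Log2 values were -0.09 (95% interval -0.26 to 0.08) for TC4 and -0.03 (-0.22 to 0.16) for TC2. The remaining families had control means of 4.61 CPM for TC5A, 2.38 for TC5B and 4.64 for Tc6. Their log2 values in F0 were 0.03 (SE 0.11), -0.02 (SE 0.13) and 0.12 (SE 0.11), and their groups overlapped.

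**Figure D2:**
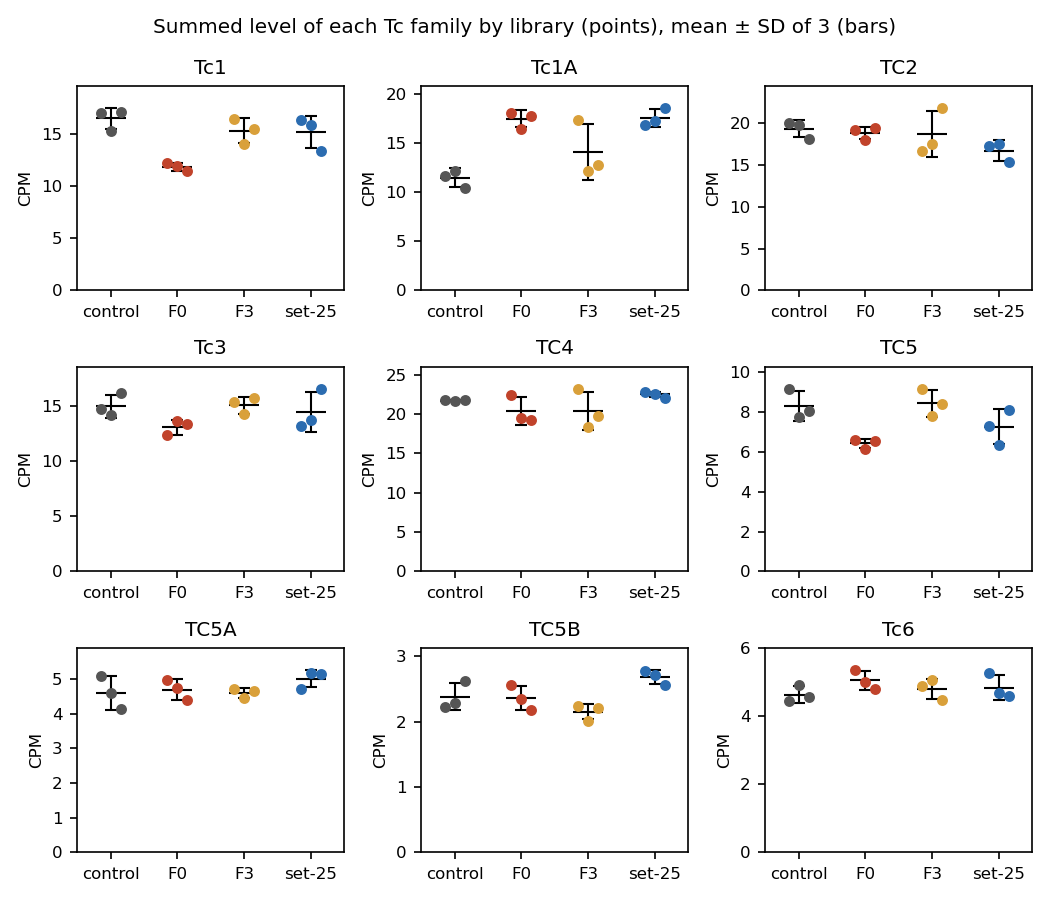
Summed level of each of the 9 Tc families in CPM (vertical axes from 0, scaled per family) in the 4 groups, with 1 point per library and bars for mean ± SD of 3. Tc1A is higher in all F0 libraries (16.5 to 18.1 CPM) and set-25 libraries (16.9 to 18.6) than in controls (10.4 to 12.2), Tc1 and TC5 are lowest in F0, and F3 library 1 stands apart from F3 libraries 2 and 3 for Tc1A.

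Single copies were tested with far fewer counts each. A copy can pass the low-count filter through the group where it is high, which may favour counts of copies that differ. The low-count filter left 108 of the 1272 Tc copies, 32 of them Tc1, 23 Tc3, 18 TC4, 14 Tc1A, 10 TC5, 5 Tc6, 3 TC2, 2 TC5B and 1 TC5A, and only these could be tested, so counts over them do not speak for all copies. In F0 13 of the 108 were called, 10 higher and 3 lower, beside 3.86% and 4.14% of the 1088 repeat copies tested. All 10 higher copies were Tc1A copies. Those lower were Tc1_24, Tc1_42 and TC5_17. Groups did not overlap for 13 copies on the higher side and 55 on the lower, beside 11.2% and 19.5% of all copies tested. Of the 13, 12 were Tc1A copies, and of the 55, 30 were Tc1 and 13 Tc3 copies. Since copies of 1 family can share reads, these counts mostly repeat a few families.

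The Tc1A copy with the highest level, Tc1A_96, stood at 1.14, 1.1 and 0.923 CPM in controls and at 1.99, 1.69 and 1.75 in F0, a log2 fold change of 0.78 (SE 0.16, edgeR adjusted p 0.004). The copy with the largest change, Tc1A_183, stood at 0.714, 0.79 and 0.613 CPM in controls and at 1.44, 1.14 and 1.42 in F0 (log2 0.91, SE 0.19, adjusted p 0.00431). Both were clear of the controls in every F0 library, and both were also called by DESeq2, which called 2 copies in all. The other called copies named by the rule were Tc1A_189 (0.83), Tc1A_247 (0.81), Tc1A_170 (0.77), Tc1A_199 (0.76), Tc1A_175 (0.75), Tc1A_205 (0.74) and Tc1A_91 (0.68), with values on the log2 scale. Tc1A_176 (0.71) was also called. Among the 9 that the rule names, Tc1A_96, Tc1A_183 and Tc1A_189 stayed called with each library left out in turn, and the others were called in 2 to 5 of the 6 fits. All of these others were lost without control library 3, which was the only such library for Tc1A_170 and Tc1A_247. The number of Tc copies called was 7 without control library 2, 5 without control library 3 and 6 without F0 library 3.

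The 12 highest Tc1A copies moved almost as 1 transcript. Over the 12 libraries the correlation of their CPM values had a median of 0.94 over 66 pairs and a range of 0.86 to 0.99. These are points from the same libraries, and copies of this kind can hold parts of the same reads, so the correlation describes the values and is no count of independent copies. The 32 Tc1 copies tested had a median correlation of 0.73 over 496 pairs, the 23 Tc3 copies 0.67 over 253, and the 18 TC4 copies 0.16 over 153. In F0, 31 of the 32 Tc1 copies and 22 of the 23 Tc3 copies had a log2 value below 0, with medians of -0.48 and -0.36, and the median over all repeat copies tested was -0.09. No Tc3 copy and 2 Tc1 copies were called.

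Among the lower copies, Tc1_24 stood at 1.46, 1.44 and 1.53 CPM in controls and at 0.916, 0.959 and 0.807 in F0 (log2 -0.73, SE 0.18, edgeR adjusted p 0.0171). Tc1_42 stood at 0.881, 0.888 and 0.77 CPM in controls and at 0.581, 0.457 and 0.486 in F0 (log2 -0.75, SE 0.17, adjusted p 0.0362). TC5_17 stood at 0.916, 0.927 and 0.773 CPM in controls and at 0.523, 0.442 and 0.472 in F0 (log2 -0.84, SE 0.20, adjusted p 0.0137). For each the F0 libraries lay below all controls. With 1 library left out, Tc1_24 was called in 4 of 6 fits (lost without control library 3 and without F0 library 3), and Tc1_42 and TC5_17 in 2 of 6 (each lost without control libraries 1 and 2 and F0 libraries 2 and 3). Their log2 values ran from -0.79 to -0.66, from -0.88 to -0.68 and from -0.93 to -0.80.

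**Figure D3:**
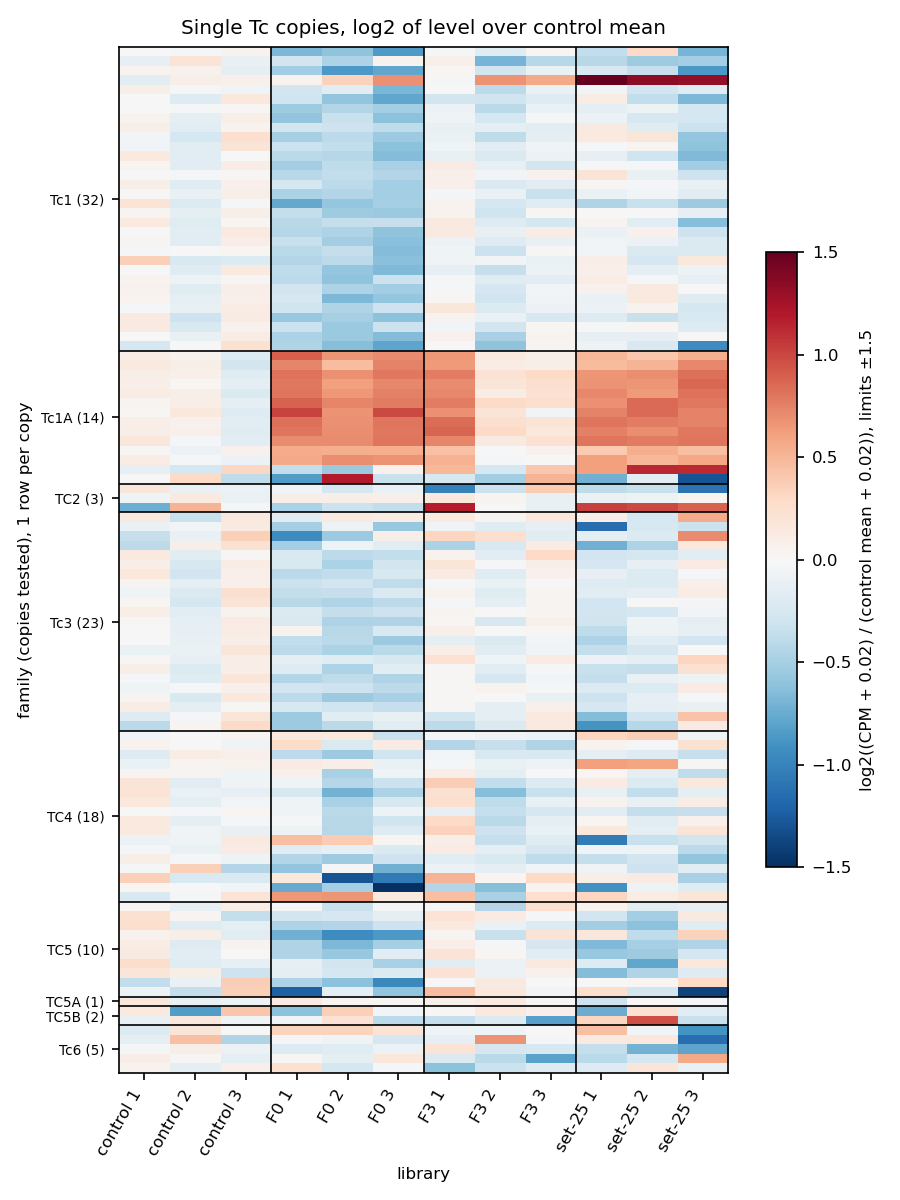
Level of each of the 108 Tc copies tested, as log2 of its CPM plus 0.02 over the control mean plus 0.02, with 1 row per copy grouped by family and 1 column per library, coloured from -1.5 to 1.5. Of the 14 Tc1A rows 12 are red in every F0 and set-25 library and in F3 library 1, most Tc1 and Tc3 rows are blue in F0, and 1 Tc1 row, Tc1_33, is dark red in the set-25 libraries.

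Whether Tc transcripts differed 3 generations after the return to 20 °C was asked by comparing F3 with the same control libraries. No Tc family passed the test, beside 3.16% of all families tested, and DESeq2 called none either. For no Tc family were all F3 libraries above or all below the controls, beside 5.06% and 8.86% of all families. At an unadjusted p under 0.05 there was 1, Tc1A. The log2 values of the 9 families ran from -0.15 to 0.30 with a median near 0, and the median over all families was 0.01.

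Tc1A stood at 17.4, 12.2 and 12.8 CPM in F3 libraries 1, 2 and 3. Library 1 was within the F0 range, library 2 within the control range and library 3 just above it. The log2 value was 0.30 (SE 0.11, 95% interval 0.07 to 0.53, edgeR adjusted p 0.276). It depended on single libraries, being 0.12 (adjusted p 0.854) without F3 library 1 and 0.40 (adjusted p 0.0453) without F3 library 2. The 12 highest copies stood at 14.2, 9.73 and 9.67 CPM in F3, all above the control range of 7.72 to 9.26. The other 282 stood at 3.19, 2.45 and 3.1. F0 and F3 libraries entered the ranking of the 12.

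Tc1 in F3 stood at 16.4, 14 and 15.5 CPM, overlapping the controls, with a log2 value of -0.10 (95% interval -0.29 to 0.08). TC5 stood at 9.15, 7.81 and 8.39 CPM, also overlapping, with a log2 value of 0.03 (-0.20 to 0.25). For Tc3 the F3 values of 15.4, 14.3 and 15.8 CPM spanned nearly the control range, and the log2 value was 0.01 (-0.18 to 0.20). The ratio of Tc1A to Tc1 was 0.823 to 1.06 in F3, above the 0.61 to 0.8 of controls and below the 1.39 to 1.56 of F0 in every library. This ratio was picked with its values in view, from families called in F0, and its difference was not tested. Neither Tc1A nor Tc1 was called in F3, and each overlapped the controls. No single Tc copy was called in F3, beside 2.11% of all copies tested, with 4 at an unadjusted p under 0.05 and none called by DESeq2. F3 and control libraries did not overlap for 5 copies on the higher side, all of them Tc1A, and 7 on the lower, beside 7.54% and 6.71% of all copies.

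The step from F0 to F3 was also tested directly. Transcripts of Tc1 and TC5 were higher in F3 than in F0, and 2 of 9 Tc families were called higher, beside 8.23% of all families. The libraries did not overlap for 3 Tc families, all higher in F3, beside 13.3% of all families on that side and 8.23% on the other. Tc1 had a log2 fold change of 0.37 (SE 0.09, 95% interval 0.19 to 0.56, edgeR adjusted p 0.00566) and TC5 one of 0.39 (SE 0.11, 0.17 to 0.62, adjusted p 0.0153). Both families had every F3 library above every F0 library. The TC5 call was lost without F0 library 2 (0.37, adjusted p 0.07). Tc1A had a log2 value of -0.31 (SE 0.11, 95% interval -0.53 to -0.08) and an adjusted p of 0.0749, and its groups overlapped through F3 library 1, without which it was called (-0.47, adjusted p 0.000637). F0 libraries serve in this comparison and in that with control, so these results are not independent.

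Of the single copies, 1 of 108 was called higher and 1 lower in F3 than in F0, beside 3.12% and 1.47% of all copies. Without overlap were 50 copies on the higher side and 6 on the lower, beside 16.6% and 8.46%. Of the 50, 25 were Tc1 and 15 Tc3 copies, which are not independent within a family. TC5_17 was higher in F3, at 0.895, 0.688 and 1.01 CPM against 0.523, 0.442 and 0.472 in F0 (log2 0.82, SE 0.20, edgeR adjusted p 0.0332). TC4_46 was lower in F3, at 1.93, 2.06 and 1.91 CPM against 3.18, 2.25 and 2.85 in F0 (log2 -0.50, SE 0.13, adjusted p 0.0363), and it also lay below all controls (2.72, 2.61 and 2.52), where the test did not call it (-0.41, adjusted p 0.204). Each kept its call in 1 of 6 fits with 1 library left out, with log2 ranges of 0.70 to 0.96 and -0.61 to -0.37. TC5_17 was called only without F3 library 2, and TC4_46 only without F0 library 2. DESeq2 called neither.

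**Figure D4:**
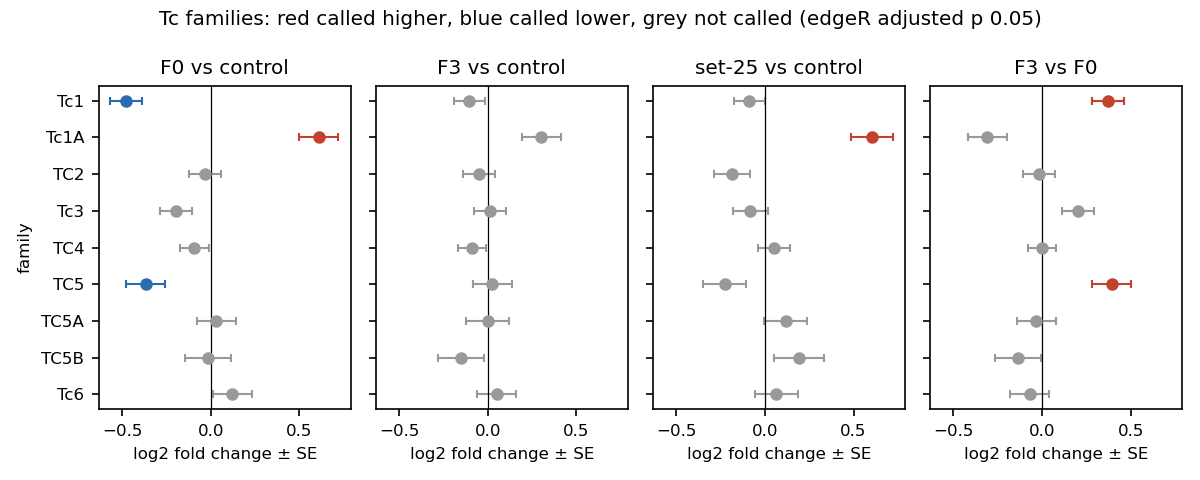
Log2 fold change ± SE (horizontal axis) of each Tc family (vertical axis) in the 4 comparisons, red where called higher, blue where called lower and grey where not called. Tc1A is called higher in F0 (0.61) and in set-25 (0.60), Tc1 and TC5 are called lower in F0 and higher in F3 than in F0, and no family is called in F3 against control.

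The set-25 mutants addressed which Tc transcripts differ when a histone H3 lysine 9 methyltransferase is mutated. The control libraries are the same as for F0 and F3. Tc1A transcripts rose 1.52-fold, and no other Tc family was called. That is 1 of 9 Tc families called higher, beside 17.1% of all families. The mutant and control libraries did not overlap for 2 Tc families on the higher side and 1, TC2, on the lower, beside 31.6% and 7.59% of all. The median log2 value was 0.05 over the Tc families and 0.12 over all families tested. Marker sums moved with the mutant as well. Those of muscle (1110 to 1370 CPM against 788 to 904 in controls) and of yolk and oocyte (73800 to 78400 against 60200 to 64000) were higher in every set-25 library. Those of neurons (61.1 to 65 against 84.5 to 87, 3 markers), epidermis (1.97 to 3.08 against 4.2 to 8.6) and germline (1290 to 1330 against 1340 to 1350) were lower in every set-25 library, and the intestine and sperm sums overlapped. Their part in the set-25 results was not tested.

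Tc1A stood at 16.9, 17.3 and 18.6 CPM in set-25 libraries, against 11.7, 12.2 and 10.4 in the controls. Every mutant library lay above every control, and the log2 fold change was 0.60 (SE 0.12, 95% interval 0.36 to 0.85, edgeR adjusted p 0.000803). The call held without set-25 libraries 1 and 3 (0.59, adjusted p 0.0219), a fit in which the lone mutant library is assumed to vary like the other groups. The 12 highest copies stood at 13.7, 13.8 and 14.5 CPM, against 7.72 to 9.26 in controls. The other 282 copies stood at 3.14, 3.52 and 4.13, against 2.44 to 3.23. Set-25 libraries entered the ranking and the low-count filter, so these splits do not locate the change. Copies too low to be tested singly had a log2 value of 0.29 (SE 0.17, adjusted p 0.28) when summed, and copies with whole values one of 0.60 (SE 0.33, adjusted p 0.263).

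Tc1 stood at 16.3, 15.9 and 13.4 CPM in the mutants, within and below the control range (log2 -0.09, 95% interval -0.28 to 0.11, edgeR adjusted p 0.554). The ratio of Tc1A to Tc1, picked with its values in view and not tested, was 1.04, 1.09 and 1.38, above all controls. TC2 and TC5 were lower on average, at 17.3, 17.5 and 15.3 CPM and at 7.32, 6.36 and 8.12, but were not called (-0.19 and -0.23, adjusted p 0.188 each). When libraries were scaled on the repeats instead of the genes, the log2 values of the Tc families in set-25 moved by a median of -0.11, and TC2 (-0.30, adjusted p 0.0342) and TC5 (-0.34, adjusted p 0.0303) were then called lower while Tc1A stayed called higher (0.49). Log2 values of TC4 and Tc6 changed sign under that scaling, from 0.05 to -0.06 and from 0.06 to -0.05. TC4 stood at 22.8, 22.5 and 22.1 CPM, just above all controls, and was not called. TC5B at 2.77, 2.71 and 2.56 CPM had a mean of 2.68 against 2.38 in controls (log2 0.19, 95% interval -0.10 to 0.49), and its groups overlapped.

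Of the single copies, 7 of 108 were called in set-25, all higher, beside 5.79% of all copies. They were Tc1_33 and 6 of the Tc1A copies, Tc1A_247, Tc1A_199, Tc1A_189, Tc1A_183, Tc1A_175 and Tc1A_170. Tc1_33 stood at 1.13, 0.999 and 0.985 CPM in the mutants and at 0.338, 0.407 and 0.405 in controls. It rested on few estimated counts, 23.5, 26.33 and 8 in the mutants and 9.5, 14.5 and 13 in controls. Its log2 fold change was 1.43 (SE 0.23, edgeR adjusted p 0.000559), 2.7-fold. It was at 0.397, 0.492 and 0.627 CPM in F0 and at 0.375, 0.624 and 0.579 in F3, so all mutant libraries lay above all 9 wild-type libraries. In all 13 alternatives it was called, with adjusted p-values of 0.000384 to 0.0313, and it was the 1 copy called by DESeq2. In the Tc1 family, where 25 of 32 copies tested had a log2 value below 0, it was the only copy called.

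The 6 Tc1A copies had log2 fold changes of 0.73 to 0.82. An example is Tc1A_189, at 1.15, 1.29 and 1.24 CPM against 0.725, 0.76 and 0.635 in controls (0.81, SE 0.19, edgeR adjusted p 0.02). Groups did not overlap for 13 of the 14 Tc1A copies tested. Over the 108 Tc copies there were 15 such copies on the higher side and 15 on the lower, beside 14.6% and 11.6% of all copies. The higher side is favoured where a copy passed the filter through set-25, as with TC2_154 (0.369 to 0.41 CPM against 0.107 to 0.28 in controls). In set-25 library 3, TC2_154 held 3 counts and Tc1A_238, also on the higher side, held 5. The calls of the 6 were close to the threshold, with adjusted p-values of 0.02 to 0.0446. Leaving out any 1 of the 6 libraries left 1 or 2 Tc copies called, namely 2 without control library 1, 2 without control library 2, 1 without control library 3, 1 without set-25 library 1, 1 without set-25 library 2 and 2 without set-25 library 3. Leaving out set-25 libraries 1 and 3 together left 1.

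**Figure D5:**
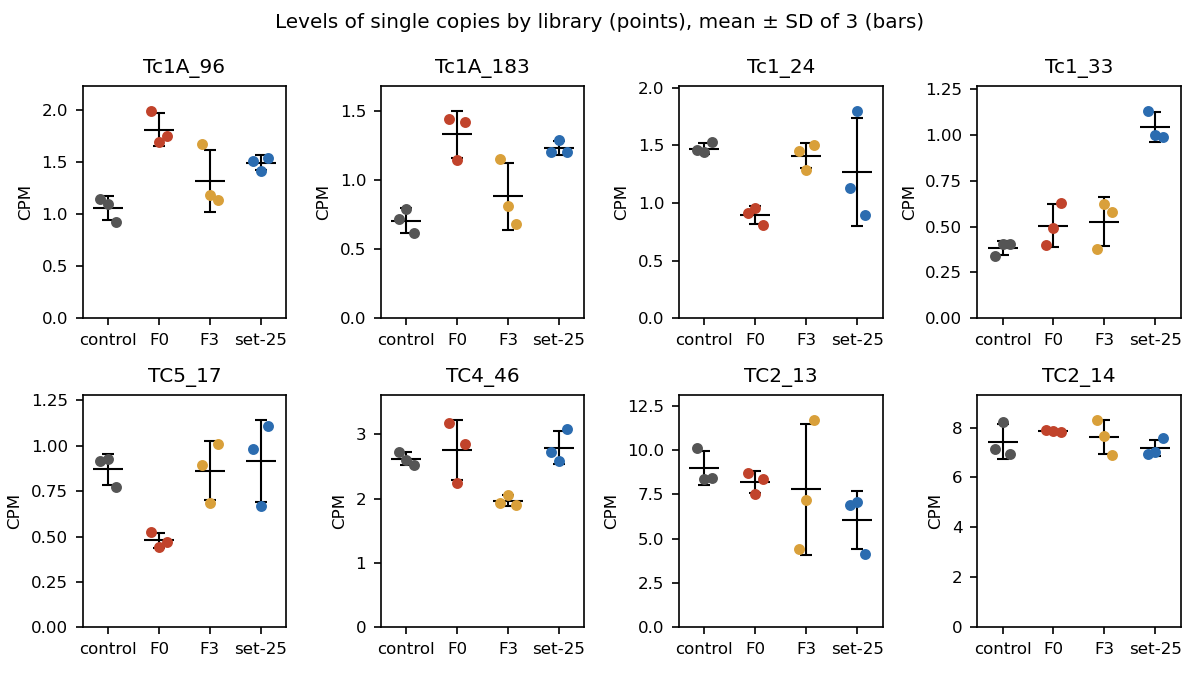
Level in CPM (vertical axes from 0) of 8 single Tc copies in the 4 groups, with 1 point per library and bars for mean ± SD of 3. Tc1A_96 and Tc1A_183 are high in F0, Tc1_24 and TC5_17 low in F0, Tc1_33 high in set-25 (0.985 to 1.13 CPM), TC4_46 low in F3 (1.91 to 2.06), and TC2_13 spreads from 4.42 to 11.7 within F3 while TC2_14 stays level.

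Of the 12 copies with the highest levels, TC2_14 stood between 6.91 and 8.29 CPM in all 12 libraries. Its neighbour in level, TC2_13, stood at 10.1, 8.37 and 8.44 CPM in controls, at 8.71, 7.51 and 8.34 in F0, at 4.42, 7.18 and 11.7 in F3 and at 6.87, 7.08 and 4.15 in set-25. All set-25 libraries lay below all controls, but the spread within F3 and set-25 was wide, and the copy was not called (set-25 log2 -0.49, SE 0.26, edgeR adjusted p 0.373). The ratio of TC2_13 to TC2_14 in a library was 1.02 to 1.41 in controls, 0.952 to 1.1 in F0, 0.534 to 1.69 in F3 and 0.549 to 1.01 in set-25. Without its highest copy the TC2 family had a log2 value of 0.03 in set-25 in place of -0.19.

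TC4_162, TC4_88, TC4_1, TC5A_27 and TC5_15 complete the 12 highest copies with those named above, and none of these 5 was called in any comparison. TC4_162 averaged 2.78 ± 0.0731 CPM in controls, 2.79 ± 0.502 in F0, 2.69 ± 0.0638 in F3 and 3.25 ± 0.514 in set-25 (SD, n = 3). TC4_88 averaged 1.02 ± 0.063 CPM in controls and 1.38 ± 0.308 in set-25, where library 3, at 1.03, overlapped the controls. TC4_1 was at 0.866 to 1.03 CPM in F0, below its control range of 1.11 to 1.37 (log2 -0.42, edgeR adjusted p 0.184). TC5A_27 averaged 1.72 to 1.94 CPM in the 4 groups and TC5_15 1.21 to 1.32.

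For comparison, the table holds 6 repeat families with mariner in their names or a name of that form (MARINCE1, MAR_CE, Mariner2_CE, Mariner3_CE, Mariner4_CE and Mariner5_CE), by name relatives in the same superfamily. None was called in any of the 4 comparisons. The highest of them, Mariner2_CE, averaged 14.7 CPM in controls, 13.6 in F0, 13.9 in F3 and 12.7 in set-25, with log2 values of -0.11, -0.08 and -0.21 against control (edgeR adjusted p 0.49, 0.88 and 0.128). No test set these families against the Tc families.

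Genes of the small RNA, chromatin and RNA editing pathways were followed through a list of 62 by role, called silencing genes here for short. Not every listed gene is known to silence Tc elements, so counts over the list describe these pathways only. Of the 62, 61 matched a row, and all 61 were tested among 14466 genes by the same edgeR test. In F0 3 were higher and 22 lower, beside 16.7% and 12% of all genes. The median log2 value was -0.09 over the list and 0.01 over all genes. In F3 none was called by edgeR, beside 0.263% of all genes, with 3 at an unadjusted p under 0.05 and none by DESeq2. In set-25 4 were higher and 7 lower, beside 8.9% and 8.14%. From F0 to F3 23 were higher and 3 lower, beside 13.1% and 17.3%. The comparisons share libraries, and the list was chosen with results of these data known.

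Of the 19 genes for amplifying small RNAs, 8 were lower in F0 and none higher, beside 12% and 16.7% of all genes. The exonuclease-domain gene mut-7 stood at 146, 149 and 151 CPM in controls and at 123, 126 and 123 in F0 (log2 -0.27, SE 0.04, edgeR adjusted p 6.27e-05). The endonuclease gene rde-8 (listed as ZC477.5) fell by 0.28 on the log2 scale and rde-11 (listed as B0564.11) by 0.33. They averaged 62.2 and 34.2 CPM in F3 and 63.7 and 35.1 in controls. In set-25, mut-2, a nucleotidyltransferase that marks RNAs for amplification, stood at 90.2, 89 and 89.6 CPM against 76.1, 77.6 and 77.3 in controls (log2 0.22, SE 0.04, adjusted p 0.00115). Its groups did not overlap, and it was called with each of the 6 libraries left out. Its level in F0 was 68.7, 70.3 and 64.9 CPM, below all controls (log2 -0.18, adjusted p 0.00207). The mut-14 paralogue smut-1 (listed as Y38A10A.6) was called higher in set-25 by log2 0.17 and the helicase gene rde-12 (listed as F58G11.2) lower by -0.13, and each lost its call without control library 2, control library 3 or set-25 library 1, rde-12 also without control library 1 or set-25 library 3, with log2 ranges of 0.15 to 0.20 and -0.17 to -0.11. The helicase gene znfx-1 (listed as ZK1067.2) averaged 298 CPM in F3 and 255 in F0 (log2 0.22, adjusted p 0.000496).

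In the piRNA pathway, 3 of 7 genes were lower in F0, beside 12% of all genes. The Argonaute gene prg-2 stood at 247, 272 and 269 CPM in controls and at 211, 190 and 194 in F0 (log2 -0.40, SE 0.05, edgeR adjusted p 5.44e-06). It is near-identical to prg-1, which stood at 433 to 448 CPM in controls and 409 to 432 in F0, so the split of reads between them is uncertain. The gene for the exonuclease that trims piRNA ends, parn-1 (listed as K10C8.1), stood at 34.3, 36.5 and 34.1 CPM in controls and at 25.6, 27.4 and 25.1 in F0 (log2 -0.43, SE 0.06, adjusted p 2.91e-05). It was also lower in set-25, at 29, 31.3 and 29.2 CPM (log2 -0.23, adjusted p 0.0157), a call lost without control library 2 or set-25 library 1 (log2 range -0.28 to -0.20). The gene for the small RNA methyltransferase henn-1 (listed as C02F5.6) fell by 0.22 on the log2 scale in F0.

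Among the 8 primary RNAi genes tested, alg-3 (listed as T22B3.2), an Argonaute gene of spermatogenesis, had the largest change of the list. It stood at 0.853, 0.589 and 0.498 CPM in controls and at 3.06, 1.85 and 2.91 in F0 (log2 2.02, SE 0.31, edgeR adjusted p 0.00012), and at 0.653, 0.32 and 0.982 in F3. All F0 libraries lay above all others, as did the summed sperm markers given above. The gene for the double-stranded RNA binding protein rde-4 fell by 0.16 in F0 on the log2 scale, and the Argonaute gene ergo-1 by 0.12, of which ergo-1 kept its call in 1 of 6 fits with 1 library left out (log2 -0.15 to -0.12), the 1 without F0 library 1. The RNA polymerase gene rrf-3 was called higher in F3 than in F0 by log2 0.13 (adjusted p 0.00724).

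Of the 9 Argonautes that bind amplified small RNAs, 5 were lower and 1 higher in F0, beside 12% and 16.7% of all genes. Among the 5 lower, csr-1 (log2 -0.16 to -0.13 with 1 library left out) was called in 1 of 6 such fits and wago-4 (-0.17 to -0.13) in 2 of 6, and without control library 1, control library 3 or F0 library 1 neither was called, which left 3 lower. Both lie outside the rule for named genes and were picked once their values had been seen. The gene ppw-1 stood at 203, 199 and 205 CPM in controls and at 171, 172 and 170 in F0 (log2 -0.24, SE 0.03, edgeR adjusted p 2.19e-05), with no overlap. The nuclear Argonaute gene nrde-3 averaged 57.3 CPM in controls and 48.2 in F0 (-0.25, adjusted p 0.00142). The gene ppw-2 moved the other way, from 277 to 311 CPM on average (0.17, adjusted p 0.00408). In set-25 sago-1 was the only 1 of the 9 called, higher by log2 0.17 (adjusted p 0.0402), and it was called in 2 of 6 fits with 1 library left out (0.12 to 0.20, lost without control libraries 1 and 2 and set-25 libraries 1 and 3).

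Of the 16 genes of nuclear RNAi and chromatin, 3 were lower and 1 higher in F0, beside 12% and 16.7% of all genes. The set-25 transcript itself stood at 53.1, 50.9 and 55.6 CPM in F0, below all controls (log2 -0.34, SE 0.07, edgeR adjusted p 0.00189), and at 62, 77.3 and 71.6 in F3. That of met-2, which encodes the methyltransferase acting before SET-25, stood at 227, 218 and 216 CPM in controls and at 197, 193 and 192 in F0 (-0.18, SE 0.04, adjusted p 0.00115). The gene for the chromodomain protein that tethers methylated chromatin to the nuclear envelope, cec-4, rose from 36.6, 38.3 and 38.2 CPM to 54, 58.8 and 54.9 (0.57, SE 0.06, adjusted p 1.54e-06). In F3 it was at 37.4, 37.8 and 35.9 CPM, overlapping the controls. In set-25 the heterochromatin protein gene hpl-2 was called lower (-0.16, adjusted p 0.0125), as were nrde-1 (-0.14, adjusted p 0.0347) and set-25 (-0.24, adjusted p 0.0328). The call of hpl-2 was lost without control library 1 or set-25 library 1 (-0.21 to -0.14). That of nrde-1 was lost with each of the 6 libraries left out (-0.16 to -0.13), and that of set-25 in all but the fit without set-25 library 2 (-0.29 to -0.19).

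RNA editing of double-stranded transposon RNA is the work of the products of adr-1 and adr-2. The deaminase gene adr-2 fell in F0 by 0.16 on the log2 scale (edgeR adjusted p 0.00483), and its partner gene adr-1 was called lower in set-25 (-0.15, adjusted p 0.0104), a call lost without set-25 library 1 (log2 range over the 6 fits -0.19 to -0.14). The set-25 counts were unsteady. The 11 genes called became 5, 3 and 5 without control libraries 1, 2 and 3, 1 without set-25 library 1 and 5 without set-25 library 3. None was called without set-25 libraries 1 and 3 together.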

How the data were processed

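The deposited table holds 1 column for each of 12 libraries of whole gravid adults, and 0 columns were left unmatched to a sample. Its values are estimated counts deposited by the authors, of which 22.4% were not whole at a tolerance of 1e-06. Libraries came from 400 ng total RNA by a stranded kit with ribosomal RNA depletion and without poly(A) selection, read as paired ends of 50 bases, per the labels' protocols. The submitters' processing notes name TopHat2 2.1.0, featureCounts 1.5.1 and DESeq2 1.8.1 without saying what each did. Genome build, annotation, strandedness of counting and the handling of multiply matching reads: not given in the sources used here. Dividing such reads among copies makes single-copy values uncertain, and family sums too if families share reads. The design had assumed whole counts, and these expected counts were rounded to whole numbers, for families after summing.

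Families (177 entered, leaving out 2 of ribosomal RNA), single copies (53920 entered) and genes were each tested in 1 fit of all 12 libraries with edgeR 4.0.16 in R 4.3.3 (robust quasi-likelihood, filterByExpr by group with a minimum count of 10, library sizes and TMM factors from the genes, two-sided, Benjamini-Hochberg adjustment). This left 158 families, 1088 copies and 14466 genes. DESeq2 1.42.0 was an alternative. Methods were also run on simulated data in which each copy varied on its own. That run cannot cover copies that share reads, and no conclusion is drawn from it. CPM were counts divided by the effective gene library size and multiplied by 1e+06, given as mean ± SD over 3 libraries. Depth was 10678819 to 35483865 counts per library. Libraries of 1 group differed beyond counting noise (chi-square per degree of freedom 3.86 to 391 over pairs). No pairing by replicate number was seen. Deviations of same-numbered libraries had correlations of -0.21 to 0.12, and those of other pairs between groups -0.22 to 0.28. Such values cannot show whether same-numbered libraries were grown together.

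Named copies were the 12 highest by mean CPM and, per comparison and direction, up to 8 called copies, taken by size of change among those averaging 10 counts or more in the higher group. Named silencing genes were up to 3 per role and comparison with the smallest p, plus set-25. Tc1A_176, the split of Tc1A at 12 copies, the family ratios, prg-1 and the F0 level of mut-2 were picked with their values in view. Members and lists were chosen with earlier results of these data known. No sequences are printed, because the copies' positions are not in the table.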

Additional observations from a re-analysis of the deposited data

How the results depend on the processing

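DESeq2 called 2, 1 and 0 Tc copies in F0, set-25 and F3 against F0 (13, 7 and 2 by edgeR), and leaving out the low-count filter gave 3, 1 and 0. For F3 against F0, 1 copy was called with only the 6 libraries compared and 4 with genes and copies in 1 fit. Leaving out 1 library at a time gave 5 to 12 copies for F0, 1 to 2 for set-25 and 0 to 2 for F3 against F0, and 1 for set-25 without libraries 1 and 3. The replicate number was also used as a block, although no pairing by number was seen. Tc families called were then 3, 0, 1 and 2 (F0, F3, set-25, F3 against F0), copies 13, 0, 4 and 1, and silencing genes 23, 0, 9 and 25. Families called were 0 in F0, set-25 and F3 against F0 when only copies with whole values were summed (1 Tc family testable) or, chosen after seeing the data, only copies too low to be tested singly. Scaling on repeats gave 3 families in set-25. Leaving out 1 library gave 0 to 1 Tc family called in F3 and 1 to 2 in F3 against F0. Silencing genes called in set-25 were 18 with only the 6 libraries compared, 0 without set-25 libraries 1 and 3, and 1 to 9 with 1 library left out. No called value changed sign under any alternative run. Groups of 3 libraries were not searched for outlying samples.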
